A study of Mus musculus with 23 samples.

Results

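The responses of the mouse olfactory epithelium to undiluted acetophenone and undiluted TMT were compared within litters, gene by gene, in 14 of the 23 RNA-seq libraries of the series. The response to an odor was the difference between the odor library and the control library of the same litter. The difference of responses was the acetophenone response minus the TMT response. A negative value marks a gene whose signed log2 response was higher with TMT. A positive value can come from a fall with TMT as well as from a rise with acetophenone. The members were chosen by their labels: 6 libraries of the acetophenone experiment (control and 100% acetophenone in litters 1 to 3) and 8 libraries of the TMT experiment (control and 100% TMT in litters 1 to 4). All came from C57BL/6 mice at postnatal day 21 that met the odor or the control condition for 1 h. No transgene, deletion or second treatment is named for any group, and the labels give neither the number of mice behind a library nor what the control mice were exposed to. The RNA came from an immunoprecipitation of ribosomes that carry the phosphorylated form of protein S6 (pS6), and the libraries therefore hold RNA of all cell types whose ribosomes carried pS6. Each odor has its own controls and its own litters, so odor and experiment cannot be told apart.

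Each olfactory sensory neuron expresses 1 odorant receptor gene out of a large family, and neurons that were recently active carry more phosphorylated S6 on their ribosomes. In a pS6 pull-down, receptor transcripts of the neurons that an odor activates are therefore enriched over the control. Acetophenone is an aromatic ketone with a sweet smell, known as a ligand of the receptors M71 (Olfr151) and M72 (Olfr160), and TMT (trimethylthiazoline) is a sulfur-containing compound of fox secretions that mice avoid.

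Counts summed to between 2187268 and 3115656 in the 6 acetophenone libraries and to between 2672161 and 8347796 in the 8 TMT libraries. At an equal depth of 2187268 counts the acetophenone libraries held 15017 to 15757 genes, and the TMT libraries held 12868 to 15497, with the 3 controls of TMT litters 2 to 4 at 13306 to 13762. Of the 1122 odorant receptor genes, 540 to 800 were expected at that depth in an acetophenone library. The corresponding number was 122 to 162 in the TMT libraries of litters 2 to 4, with the exception of the TMT odor library of litter 4, which held 436. Omp, the olfactory marker protein of mature sensory neurons, was measured in all 14 libraries, at 111 to 1130 CPM (counts relative to a fixed library total, with library sizes scaled by the trimmed mean of M values). The names of the libraries belong to another series after litter 1 in each experiment, so library series and litter cannot be told apart. Levels of single genes below are CPM on that scale, and log2 ratios within litters were taken after adding 0.5 CPM. Summed levels of gene lists are instead relative to unscaled library totals.

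Of 13033 genes tested with edgeR's quasi-likelihood test, litter as a block, 9 differed between the responses at an adjusted p under 0.05 (0.0691% of the genes), and all 9 responded more to TMT. They were the receptor gene Olfr96 and 8 genes expressed outside the receptor family: Psme4, Crot, Grsf1, Kcnj15, Hspa4l, Aldh1a1, Hspa9 and Phf14. No gene was called in the other direction (0%). An unadjusted p was under 0.05 for 376 genes in that direction, and DESeq2 called 37. The numbers for a negative difference were 1072 and 283. The 9 log2 differences lay between -6.36 and -2.13, beside a median of -0.05 over all genes tested. The next gene in order, Skp1a, stood just outside at an adjusted p of 0.0511. With no replicate block the smallest adjusted p was 0.853 and no gene was called. None was called either with RLE size factors (smallest adjusted p 0.0542), with all 23 libraries (0.0520) or with libraries scaled to their summed receptor counts (0.0713). The last scaling moved the median difference over all genes to 0.60 and turned the balance, with 903 genes higher and 286 lower by the unadjusted p at 0.05. The count was also 0 without acetophenone litter 1, 2 or 3 or without TMT litter 4, and it was 77, 20 and 26 without TMT litters 1, 2 and 3, while all 9 genes kept a negative difference in each of these fits.

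Olfr96 (chr17:37220146-37226673, mm10, plus strand) is an odorant receptor gene. The control libraries of acetophenone litters 1, 2 and 3 held 5.37, 25.7 and 19.8 CPM of it, from 17, 75 and 53 counts. The acetophenone libraries of the same litters held 2.83, 24.8 and 5.75 CPM, from 9, 75 and 14 counts. The TMT controls of litters 1 to 4 held 0.462, 0.162, 0.275 and 0.888 CPM, from 2, 1, 2 and 5 counts, and the TMT odor libraries held 43.1, 12.4, 12.5 and 20.7 CPM, from 113, 78, 34 and 164 counts. The 4 TMT controls were thus the lowest libraries, and the level rose in 4 of 4 TMT litters. It was lower in 3 of 3 acetophenone litters, but in litter 2 only through the scaling, at equal counts. The fitted log2 response was 5.48 (SE 0.55, adjusted p = 0.00163) to TMT and -0.88 (SE 0.51, adjusted p = 1.0) to acetophenone, and the difference was -6.36 (SE 0.75, adjusted p = 0.0426). Because the TMT controls held 1 to 5 counts each, the size of this fold change is loosely fixed.

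Psme4 (chr11:30771726-30880361, plus strand) encodes PA200, an activator that caps the proteasome, and Crot (chr5:8966033-8997324, minus strand) encodes the peroxisomal carnitine octanoyltransferase, which prepares medium-chain acyl groups for transport out of peroxisomes. Psme4 stood at 147, 173 and 381 CPM in the acetophenone controls and at 171, 262 and 475 CPM with acetophenone. In the TMT litters it went from 21.9, 9.90, 7.97 and 17.8 CPM in the controls to 132, 54.6, 85.4 and 184 CPM with the odor. The difference of responses was -2.58 (SE 0.31, adjusted p = 0.0426), and Psme4 was higher with odor in every litter of both experiments, but by 1.30-fold with acetophenone and 7.79-fold with TMT.

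Crot showed the same arrangement, with 68.2, 84.2 and 160 CPM in the acetophenone controls and 101, 104 and 171 CPM with acetophenone. Its TMT controls held 12.5, 3.24, 2.20 and 4.80 CPM and its TMT odor libraries 72.9, 28.2, 29.8 and 68.8 CPM. For Crot the difference was -2.96 (SE 0.37, adjusted p = 0.0465). With TMT, 1 of 4 Psme4 values and 2 of 4 Crot values came to lie within the range of the acetophenone libraries, and the others lay below it.

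The 300-base windows around the RefSeq start sites of Psme4 and Crot (250 bases before and 50 after, GRCm38.p6) are shown because these are the called genes outside the receptor family with the smallest p. Capitals mark the motif found in each, TGACG (the core of the cAMP response element, here on the opposite strand) for Psme4 at chr11:30771525-30771824, plus strand, and CCAAT for Crot at chr5:8997097-8997396, minus strand.
Psme4: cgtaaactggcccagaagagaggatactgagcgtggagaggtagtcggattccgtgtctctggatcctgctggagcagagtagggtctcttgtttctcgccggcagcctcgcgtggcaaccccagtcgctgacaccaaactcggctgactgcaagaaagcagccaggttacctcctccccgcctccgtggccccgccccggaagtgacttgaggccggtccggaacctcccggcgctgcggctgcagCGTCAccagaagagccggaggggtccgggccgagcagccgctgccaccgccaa
Crot: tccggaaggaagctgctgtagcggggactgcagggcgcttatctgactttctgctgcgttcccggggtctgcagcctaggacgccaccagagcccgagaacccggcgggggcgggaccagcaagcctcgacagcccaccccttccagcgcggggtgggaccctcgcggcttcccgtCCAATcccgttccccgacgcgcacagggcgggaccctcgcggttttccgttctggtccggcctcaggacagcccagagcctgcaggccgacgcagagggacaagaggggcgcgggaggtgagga
Both windows are rich in G and C, at 65.3% and 69.7%. Among 32851 such windows, searched on both strands, CCAAT was present in 37.4% and TGACG in 20.8%. These percentages count windows, whereas a gene was counted when any of its windows matched. Aldh1a1, Grsf1 and Phf14 have more than a single window, so counts of genes and percentages are unlike measures. Of the 7 called genes outside the receptor family that have a window, CCAAT was found for 3 (Aldh1a1, Crot and Grsf1) and TGACG for 2 (Hspa4l and Psme4). The ATF4-type element TGATGNAA (3.97% of windows) was found for 0 of the 7 and the paired heat shock element GAANNTTC (7.86%) for 2, Grsf1 and Phf14. A match describes the letters of a window and is not evidence of binding. The RefSeq start of Olfr96 lies 4945 bases inside the longer gene annotated by GENCODE, and no window is shown for it.

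Among the other called genes were 2 heat shock proteins, Hspa9 (the mitochondrial Hsp70, mortalin) and Hspa4l (a member of the Hsp110 family of nucleotide exchange factors). Hspa4l (chr3:40744495-40796103, plus strand) was at 64.8, 82.5 and 160 CPM in the acetophenone controls and 87.7, 111 and 126 CPM with acetophenone. With TMT it went from 6.00, 3.41, 2.34 and 7.82 CPM to 77.1, 17.7, 14.4 and 66.0 CPM, and the difference was -2.79 (SE 0.39, adjusted p = 0.0484). Hspa9 (chr18:34937414-34954357, minus strand) was at 49.0, 46.9 and 76.5 CPM in the acetophenone controls and, lower in each litter, at 38.7, 38.3 and 68.2 CPM with acetophenone. TMT took it from 17.8, 10.5, 9.21 and 20.6 CPM to 56.1, 38.2, 38.7 and 79.0 CPM, a difference of -2.14 (SE 0.31, adjusted p = 0.0484). With TMT, Hspa9 thus came to lie between 38.2 and 79.0 CPM, beside 38.3 to 76.5 CPM over all acetophenone libraries, and Hspa4l came to lie within the acetophenone range in 2 litters and below it in the other two.

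Aldh1a1 (chr19:20492715-20643465, plus strand) encodes a retinaldehyde dehydrogenase of the supporting cells, and Kcnj15 (chr16:95257558-95300260, plus strand) an inwardly rectifying potassium channel. Aldh1a1 was at 175, 515 and 329 CPM in the acetophenone controls and at 169, 484 and 264 CPM with acetophenone. Its TMT controls held 57.7, 8.60, 24.2 and 44.8 CPM and its TMT odor libraries 217, 136, 162 and 264 CPM, for a difference of -2.92 (SE 0.41, adjusted p = 0.0484). Aldh1a7 is a close copy of Aldh1a1, and counts of uniquely aligned reads can understate both. Kcnj15 stood at 440, 765 and 921 CPM without and 469, 754 and 1038 CPM with acetophenone. It went from 73.2, 8.92, 17.5 and 16.3 CPM to 315, 122, 102 and 206 CPM with TMT, and every TMT library was below every acetophenone library (difference -2.92, SE 0.40, adjusted p = 0.0484).

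Grsf1 (chr5:88659448-88676171, minus strand), an RNA-binding protein of mitochondrial RNA granules, went from 44.1, 12.3, 10.6 and 23.3 CPM to 200, 44.2, 44.6 and 175 CPM with TMT. In the acetophenone litters it was at 187, 249 and 330 CPM without and 188, 288 and 370 CPM with the odor (difference -2.13, SE 0.29, adjusted p = 0.0484). Phf14 (chr6:11907809-12081205, plus strand), a chromatin protein with PHD fingers, was at 25.9, 10.2, 15.1 and 18.8 CPM in the TMT controls and at 93.8, 81.1, 60.4 and 91.6 CPM with TMT. Its acetophenone values were 68.5, 155 and 158 CPM without and 67.9, 161 and 174 CPM with the odor (difference -2.22, SE 0.32, adjusted p = 0.0484).

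**Figure D1:**
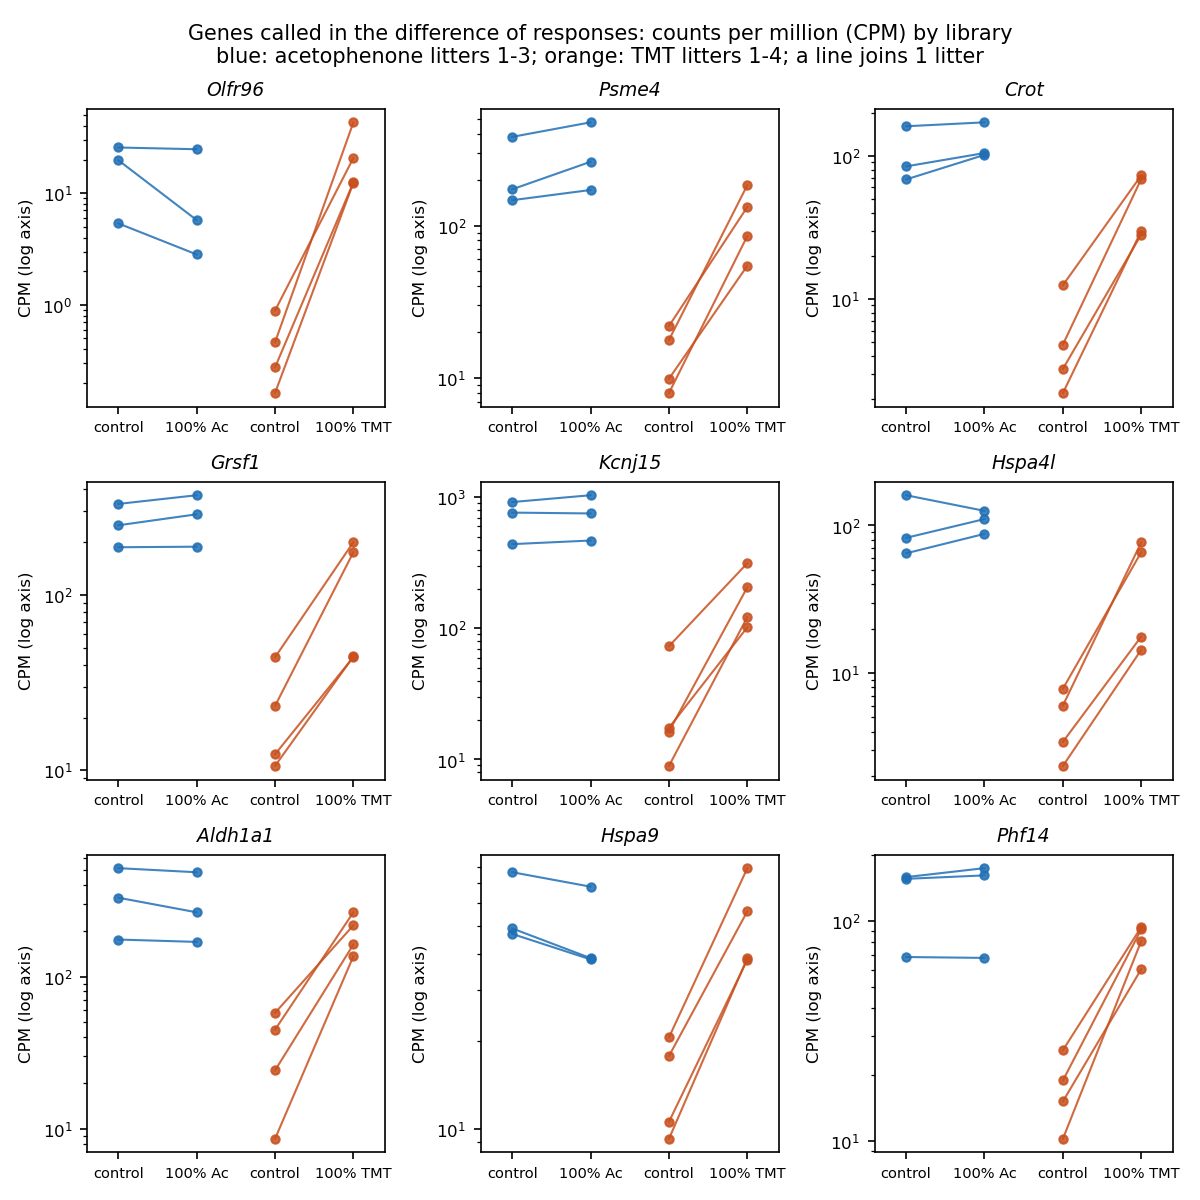
CPM on log axes for the 9 genes called in the difference of responses, with a point for each library and a line joining control and odor library of 1 litter (blue, 3 acetophenone litters; orange, 4 TMT litters). The TMT lines rise in every litter from controls that lie below all 3 acetophenone controls, and the acetophenone lines are nearly level for most genes.

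The 9 genes had control levels that differed between the experiments. For 9 of 9 all 4 TMT controls lay below all 3 acetophenone controls, an arrangement found in 17.6% of all genes tested, with the opposite one in 13.9%. The highest TMT odor library exceeded every acetophenone library for 2 of the 9, Olfr96 and Hspa9. All 9 rose in 4 of 4 TMT litters, and 3 of 9 (Psme4, Crot and Grsf1) were also higher in 3 of 3 acetophenone litters. Their transcripts had a median GC content of 44.1%, against 50.3% over the genes tested. Whether the lower control levels or the smaller number of genes in the TMT libraries have a part in the larger TMT responses was not tested. A fit with GC content and length corrected called 0 of the 9, at log2 differences of -5.80 to -1.67. What part GC content has in these responses was not tested beyond that fit.

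The within-litter ratios describe the same libraries without a model. In 982 genes (7.53%) every TMT ratio lay above every acetophenone ratio, and in 710 genes (5.45%) the order was reversed. The 9 called genes all belonged to the first set, which is no separate support because they were chosen from the same values. Their acetophenone ratios lay between -1.70 and 0.60 and their TMT ratios between 1.63 and 5.50 on the log2 scale.

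**Figure D2:**
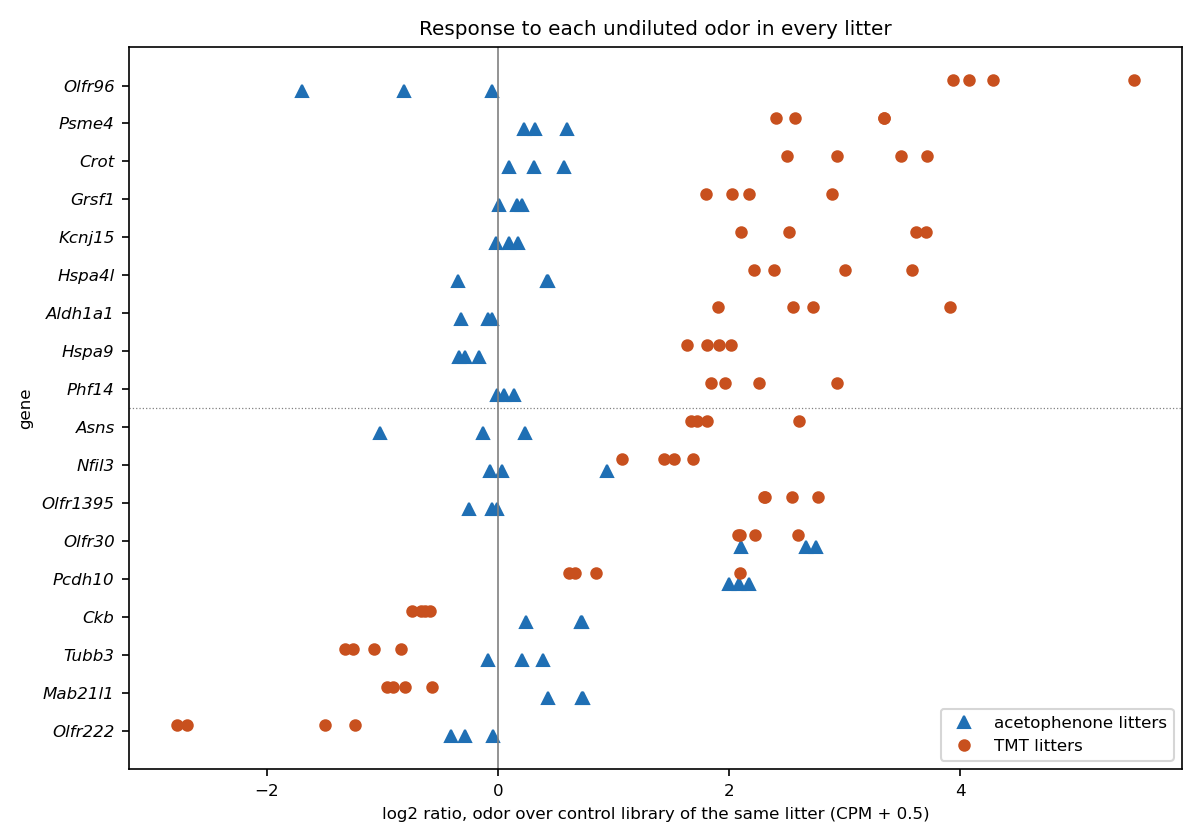
Log2 ratio of the odor library over the control library of the same litter (CPM + 0.5), for the 9 called genes above the dotted line and 9 further genes below it. Triangles are the 3 acetophenone litters and circles the 4 TMT litters. The called genes keep the odors apart, and Olfr30 overlaps with ratios of 2.07 to 2.75. For Tubb3, Ckb and Mab21l1 the acetophenone ratios lie above the TMT ratios.

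In the same fit, 605 genes rose with TMT (4.64%) and 102 fell (0.783%). With libraries scaled to their summed receptor counts the balance was opposite, with 215 higher and 5506 lower and a median TMT response of -1.19 over all genes, so the directions given here are relative to the scaling over all genes. No gene was called for acetophenone in either direction (0% and 0%). With acetophenone 156 genes were higher and 122 lower by the unadjusted p at 0.05, and DESeq2 called 10 higher and 2 lower. That the TMT response passed a threshold and the acetophenone response did not is no test of their difference, which for these genes is the comparison above. The count for TMT was 86 without TMT litter 4, 259 to 361 without 1 acetophenone litter, 440 without TMT litter 3, 242 after a correction for GC content and length, and 24 with no replicate block.

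Odorant receptors were compared as a family. Of the 1122 receptor genes, 362 passed the filter on low counts. Their median log2 response was 0.44 to acetophenone and 2.31 to TMT. The median difference was -1.63, beside -0.05 over all genes tested. The medians for TMT and for the difference rest in part on receptors with few or no counts in the TMT controls, given below. In 33 of the 362 (9.12%) all TMT ratios lay above all acetophenone ratios and in 22 (6.08%) below, close to the shares of 7.53% and 5.45% over all genes. With TMT 36 receptors rose, beside 4.64% of all genes, and Olfr222 fell, beside 0.783%. With acetophenone 33 receptors were higher and 0 lower by the unadjusted p at 0.05, none of them called, out of 156 higher and 122 lower genes in all. Without TMT litter 4 the receptors that rose with TMT numbered 4 and the median difference was -0.73, and with no replicate block they numbered 2. With libraries scaled to their summed receptor counts the median difference was -1.23, while the median acetophenone response turned to -0.14. Among the 36 receptors that rose with TMT, 17 were higher in all 4 TMT litters, and 12 reached 10 counts in at least 3 TMT odor libraries (Olfr30, Olfr31, Olfr96, Olfr131, Olfr212, Olfr350, Olfr376, Olfr449, Olfr491, Olfr531, Olfr1395 and Olfr1427).

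The base level of the receptors differed between the experiments. Of the 362 receptors, 213 (58.8%) had all TMT controls below all acetophenone controls, and 205 held at most 3 counts in every TMT control. In TMT controls 2 to 4, 133 of them had a count of 0. The depth of these libraries allows a count of 0 for levels up to 0.394 to 0.471 CPM, relative to unscaled library totals. The fitted TMT fold changes of such receptors depend on how a count of 0 is handled. The medians of 2.31 for TMT and -1.63 for the difference are therefore not measured sizes. A receptor could pass the filter through the acetophenone libraries alone or the odor libraries alone, so these medians are no test of the family. In bulk tissue, fewer neurons of a type and less pS6-bound RNA per neuron cannot be told apart.

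**Figure D3:**
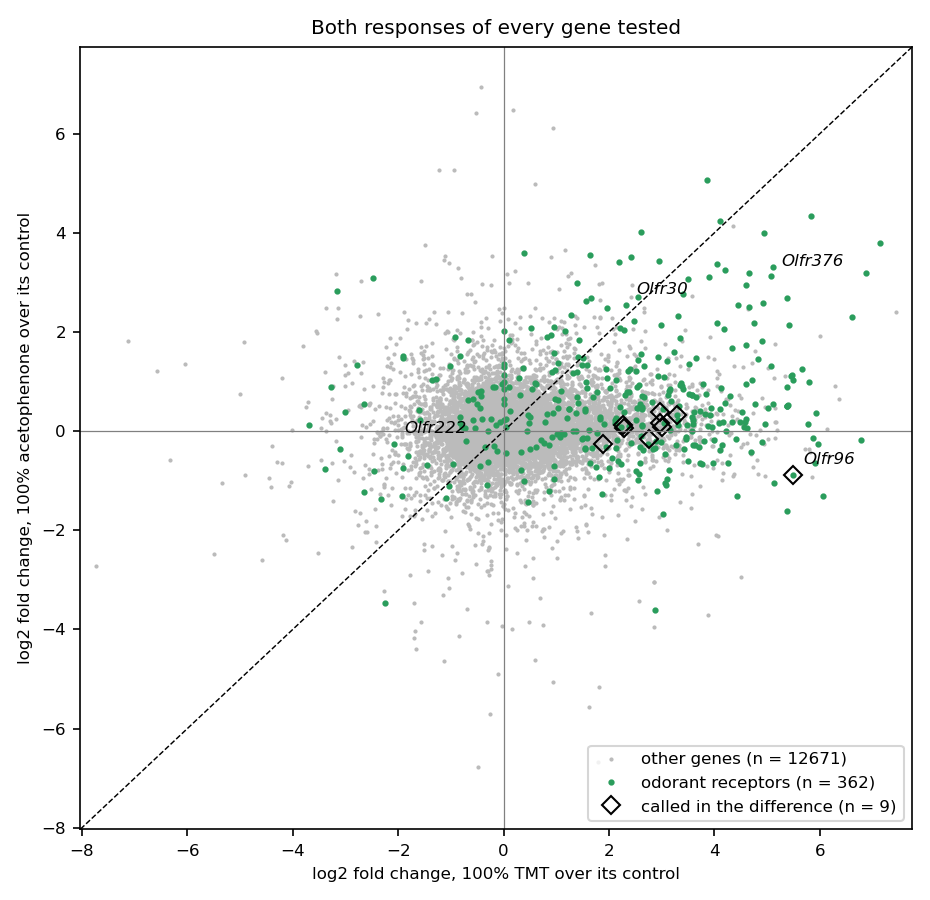
Fitted log2 fold change with 100% acetophenone against that with 100% TMT for 13033 genes (grey, 12671 other genes; green, 362 odorant receptors; diamonds, the 9 genes called in the difference), with a dashed line of equal response. The called genes lie between -0.88 (Olfr96) and 0.38 on the acetophenone axis and between 1.88 and 5.48 on the TMT axis, and Olfr30 lies near the line.

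Some receptors were higher with odor in every litter of both experiments. Olfr30 (chr11:58454105-58462270, minus strand) went from 10.7, 17.8 and 8.21 CPM to 47.8, 116 and 57.9 CPM with acetophenone, and from 10.6, 5.52, 3.85 and 13.0 CPM to 46.9, 24.8, 25.8 and 62.2 CPM with TMT. All 7 litters showed the increase, and odor and control libraries did not overlap in either experiment. The log2 response was 2.55 (SE 0.30, adjusted p = 0.0655) to acetophenone, the smallest adjusted p of any gene for that odor, and 2.32 (SE 0.25, adjusted p = 0.00248) to TMT. Their difference was 0.24, with a 95% interval from -0.74 to 1.21 (adjusted p = 0.859), so a difference of either sign up to about that size could not be seen here.

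Olfr376 (chr11:73371246-73377836, plus strand) was also higher in all 7 litters. It stood at 0.632, 5.47 and 9.33 CPM without and 9.12, 53.5 and 57.1 CPM with acetophenone, and at 1.39, 0.162, 0.275 and 0 CPM without and 22.5, 13.8, 4.05 and 16.2 CPM with TMT. The log2 response was 3.12 (SE 0.65, adjusted p = 0.897) to acetophenone and 5.07 (SE 0.67, adjusted p = 0.00545) to TMT, with a difference of -1.95 (95% interval -4.28 to 0.38, adjusted p = 0.467). In all, 113 of the 362 receptors were higher in all 3 acetophenone litters, 40 in all 4 TMT litters and 16 in both, among them Olfr30, Olfr376, Olfr491, Olfr531 and Olfr1427. These counts stand without the share over all genes and compare unequal numbers of litters, so they do not mark a trait of receptors.

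Olfr1395 and Olfr222 had at least 17 counts in each of the 14 libraries. Olfr1395 (chr11:49142274-49150453, plus strand) was at 8.84, 12 and 15.3 CPM without and 8.80, 11.6 and 12.7 CPM with acetophenone. It went from 7.39, 5.52, 2.34 and 3.02 CPM to 38.5, 29.1, 18.8 and 20.1 CPM with TMT, so that all 4 TMT odor libraries exceeded all other libraries. The difference was -2.72 (SE 0.50), with an adjusted p of 0.104 that misses the threshold. Olfr222 (chr11:59570255-59576235, minus strand) fell with TMT in 4 of 4 litters, from 32.1, 42.8, 61.0 and 47.6 CPM to 11.1, 6.2, 8.47 and 19.9 CPM (log2 response -2.09, SE 0.33, adjusted p = 0.0115). With acetophenone it was at 24.3, 64.0 and 31.7 CPM without and 19.8, 48.2 and 30.8 CPM with the odor, and the difference of 1.83 (SE 0.49, adjusted p = 0.197) was not called.

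Further receptors were called for TMT. Olfr745 was high in the acetophenone experiment, at 7.90, 43.8 and 20.1 CPM without and 56.9, 336 and 274 CPM with the odor. In the TMT litters it was at 0, 0.162, 0 and 0.178 CPM without and 2.67, 0, 0 and 11.6 CPM with the odor, and the TMT call came from litters 1 and 4. The difference was -1.47 (adjusted p = 0.612), and it was 0.52 without TMT litter 4. Olfr449, Olfr531, Olfr131 and Olfr350 rose with TMT, with differences of -3.97, -2.08, -4.37 and -4.56 and adjusted p-values of 0.185, 0.322, 0.181 and 0.173. With 1 litter left out the adjusted p of Olfr449 was 0.0156 (without TMT litter 1) to 0.610. The ratios of these 4 receptors did not overlap between the odors, but for all 4 the TMT control of litter 1 was higher than those of litters 2 to 4. Olfr1340 was at 14.2 to 16.7 CPM in the acetophenone controls and 24.2 to 33.7 CPM with acetophenone, higher in 3 of 3 litters, and held 0 to 0.2 CPM in the TMT controls and 0.2 to 9.5 CPM with TMT (difference -4.81, adjusted p = 0.102). Olfr207, Olfr208 and Olfr209 held the same counts in every library and are 1 measurement.

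The known acetophenone receptors gave no usable comparison. Olfr151 (M71) had a count of 0 in all 14 libraries. Olfr160 (M72) had 3, 0 and 1 counts in the acetophenone controls and 2, 44 and 20 with acetophenone, and 1, 0, 0 and 0 in the TMT controls and 3, 1, 0 and 13 with TMT. It did not pass the filter on low counts.

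**Figure D4:**
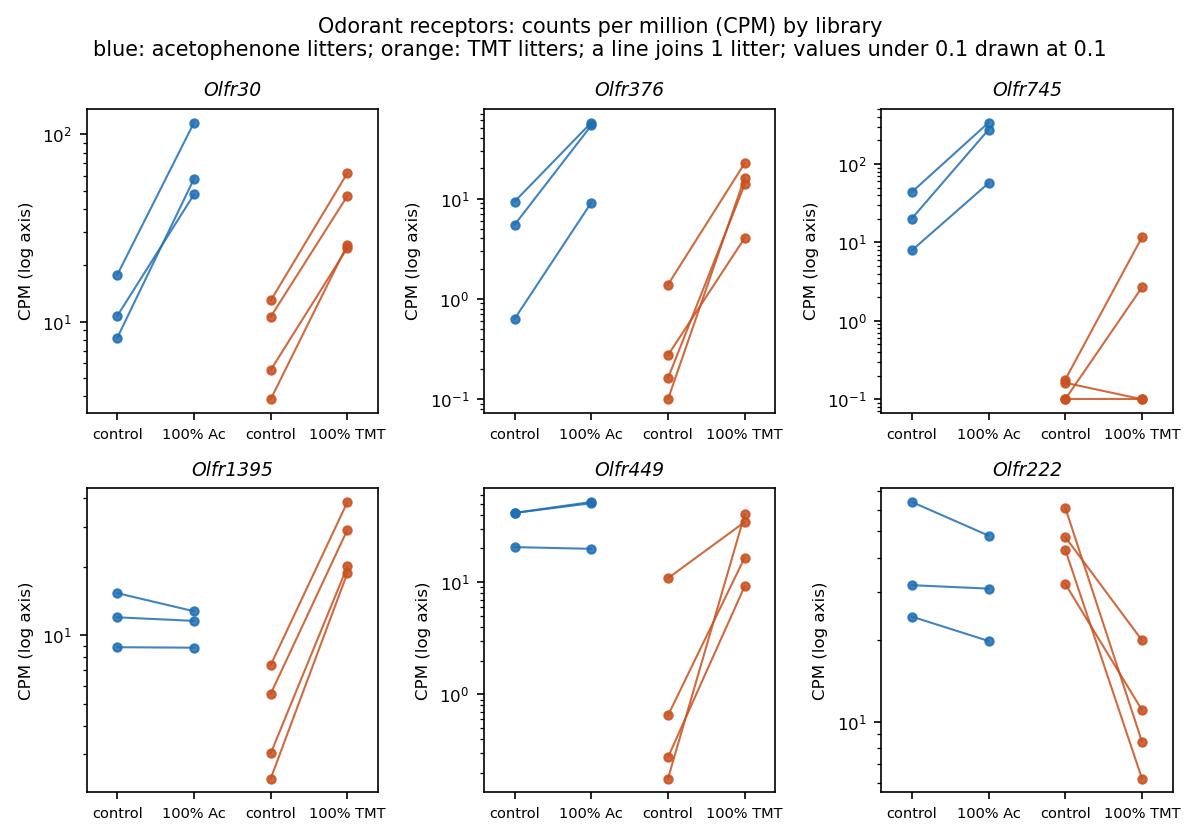
CPM on log axes for 6 odorant receptors, with a point for each library and a line for each litter (blue, acetophenone; orange, TMT; values under 0.1 drawn at 0.1). Olfr30 and Olfr376 rise in all 7 litters, Olfr1395 and Olfr449 rise in the TMT litters, Olfr222 falls in the 4 TMT litters, and Olfr745 rises in 3 acetophenone litters and in TMT litters 1 and 4.

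The share of counts on receptor genes rose in all 7 litters. It went from 0.194%, 0.486% and 0.489% to 0.274%, 0.727% and 0.825% with acetophenone, which is 1.41-fold, 1.5-fold and 1.69-fold. In TMT litters 1 to 4 it went from 0.121%, 0.0232%, 0.0362% and 0.0326% to 0.193%, 0.0481%, 0.0499% and 0.173%, which is 1.59-fold, 2.07-fold, 1.38-fold and 5.30-fold. The widest 95% Wilson interval of these shares in relative terms ran from 0.0221% to 0.0244%, for the TMT control of litter 2, and covers counting error only. The mean log2 change was 0.61 ± 0.13 (SD, n = 3) for acetophenone and 1.15 ± 0.87 (SD, n = 4) for TMT. The difference of -0.54 was within the spread of the litters (exact 2-sided permutation test over 35 arrangements, p = 0.4, where the smallest p possible is 0.0286). In percentage points the order was opposite, with a difference of 0.156 points in favour of acetophenone (exact permutation test, p = 0.114), and without TMT litter 4 the log2 difference was -0.12.

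Genes that respond to neuronal activity were compared next. Of 23 immediate early genes tested, Nr4a1 and Nr4a2 rose with TMT, beside 4.64% of all genes, and 0 were called for acetophenone or the difference. The median difference was 0.24. Fos, the classical activity marker, was at 18, 11.3 and 0.746 CPM without and 28.6, 108 and 6.98 CPM with acetophenone. With TMT it went from 15.9, 38.9, 38.2 and 62.2 CPM to 87.0, 200, 59.3 and 63.3 CPM. Fos was thus higher with odor in all 7 litters, with a difference of 0.78 (95% interval -1.35 to 2.92, adjusted p = 0.767). Egr1 was likewise higher in all 7 litters, from 2.21, 14.7 and 7.83 to 19.8, 55.8 and 12.3 CPM with acetophenone and from 13.6, 17.8, 26.4 and 19.5 to 48.1, 42.9, 47.5 and 39.6 CPM with TMT. Its difference was 0.62 (95% interval -0.84 to 2.09, adjusted p = 0.723). For Nr4a1 the difference was -0.59 (adjusted p = 0.789), and for Dusp1, a phosphatase induced by activity and stress, it was -0.95 (adjusted p = 0.322).

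Among 10 activity-dependent genes of olfactory neurons, Pcdh10, Lrrc3b and Epha5 rose with TMT, where 4.64% of all genes did. Pcdh10, a protocadherin, went from 44.9, 38.7 and 16.0 CPM to 192, 176 and 65.7 CPM with acetophenone and from 129, 102, 52.0 and 71.2 CPM to 232, 163, 223 and 109 CPM with TMT. It was higher in all 7 litters. The log2 response was 2.11 (SE 0.30, adjusted p = 0.176) to acetophenone and 1.05 (SE 0.24, adjusted p = 0.0382) to TMT, with a difference of 1.06 (95% interval 0.10 to 2.03, adjusted p = 0.333). S100a5, a calcium-binding protein of active neurons, held 1066, 2685 and 1107 CPM without and 1031, 2257 and 1370 CPM with acetophenone. In the TMT litters it stood at 68.1, 16.1, 25.4 and 19.7 CPM without and 1073, 25.4, 18.4 and 375 CPM with the odor. S100a5 was thus high with TMT in litters 1 and 4 and near the control level in litters 2 and 3, and the difference of -2.21 (SE 1.04, adjusted p = 0.472) was not called. Omp differed by 0.29 (adjusted p = 0.761).

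Markers of immature olfactory neurons were among the genes that fell with TMT. Of 16 markers tested, 7 fell with TMT (Gap43, Gng8, Dpysl5, Tubb3, Tubb5, Marcksl1 and Hn1), beside 0.783% of all genes, and 0 were called for acetophenone and 0 for the difference. The median difference of the list was 0.44, 13 of 16 values were positive, and the ratios of the same 7 genes lay above the TMT ratios in every acetophenone litter, beside 5.45% of all genes. Tubb3, the neuronal class III beta-tubulin, stood at 446, 278 and 104 CPM without and 513, 261 and 136 CPM with acetophenone. In the TMT litters it fell from 466, 546, 590 and 471 CPM to 259, 218, 280 and 197 CPM, and the difference was 1.29 (SE 0.23), with an adjusted p of 0.102. With 1 litter left out that p was 0.0433 (without TMT litter 1) to 0.503. The markers that fell numbered 2 without TMT litter 4, 3 after the GC and length correction and 0 with no replicate block. Tubb5 and Gng8 differed by 0.77 and 0.84 (adjusted p = 0.197 and 0.317). Relative to unscaled library totals, the summed level of the list was 6619 to 9459 CPM in the acetophenone controls and 6952 to 8610 with acetophenone. It was 7659 to 11208 CPM in the TMT controls and 4176 to 6810 with TMT. These sums were not put on the scale used for single genes.

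Other genes with a positive difference were Ckb, the brain-type creatine kinase, and Mab21l1. Ckb was at 341, 51.0 and 14.2 CPM without and 402, 84.2 and 23.8 CPM with acetophenone, and at 286, 289, 313 and 256 CPM without and 184, 191, 197 and 152 CPM with TMT. It was higher in 3 of 3 acetophenone litters and lower in 4 of 4 TMT litters, and the difference of 1.21 (SE 0.23, adjusted p = 0.119) missed the threshold. Mab21l1 showed the same order, with a difference of 1.46 (SE 0.28, adjusted p = 0.119). Lhx2, a transcription factor of receptor choice, differed by 1.59 (adjusted p = 0.217), and in its list of 12 receptor trafficking and choice genes 0 were called for either odor and the median difference was 0.59.

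The groups that hold the called genes are given by their counts, beside the 4.64% of all genes that rose with TMT, the 0.783% that fell and the median difference of -0.05 over all genes. Of 41 proteasome genes tested, Psma2, Psmd1, Psmd10 and Psme4 rose with TMT and the median difference was 0.00. Among 40 peroxisome and carnitine shuttle genes, 5 rose with TMT (Crot, Abcd2, Abcd3, Slc27a2 and Pex3) and the median difference was -0.23. Slc27a2, a fatty acyl-CoA synthetase, had the highest level of the list and differed by -0.79 (adjusted p = 0.251). Of 14 chaperone genes, 5 rose with TMT (Hspa5, Hspa9, Hsp90b1, Hsph1 and Dnajb4), and the median difference was -0.55. Hsp90ab1, the most abundant of them, differed by -0.37 (adjusted p = 0.626).

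Genes of xenobiotic metabolism, which supporting cells and glands of this tissue express at high levels, included 5 of 33 that rose with TMT (Gsta3, Cyp1a1, Cyp2b10, Aldh1a1 and Ces1d), beside 4.64% of all genes, with a median difference of -0.58. In 9 of the 33 every TMT ratio lay above every acetophenone ratio, against 7.53% of all genes. Of 14 sustentacular cell markers, 4 rose with TMT (Ermn, Ugt2a1, Ugt2a2 and Aldh1a7), where Ugt2a1 and Ugt2a2 share exons. Relative to unscaled library totals, the summed level of the 14 markers was 19444 to 22280 CPM in the acetophenone controls and 17028 to 25692 with acetophenone. It was 13647 to 16303 CPM in the TMT controls and 15828 to 18028 with TMT. These sums, too, were not put on the scale used for single genes. Cyp2f2, the most abundant sustentacular gene, differed by -0.33 (adjusted p = 0.579). With no replicate block 0 genes of the xenobiotic, sustentacular and chaperone lists were called for TMT, and after the GC and length correction 1, 0 and 2 rose. With libraries scaled to summed receptor counts the median differences of the 3 lists turned positive, at 0.06, 0.23 and 0.08, where the median over all genes was 0.60. The part of cell composition in these differences was not tested.

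Asns, asparagine synthetase and a target of the amino acid response, had the smallest p of the difference in its list, where none was called. It was at 576, 297 and 280 CPM without and 282, 349 and 255 CPM with acetophenone, and at 165, 112, 98.2 and 241 CPM without and 542, 684, 345 and 769 CPM with TMT. The difference of -2.26 (SE 0.35) had an adjusted p of 0.0588, and of 0.0335 (without TMT litter 1) to 0.409 with 1 litter left out. Of the 19 amino acid response genes tested, Asns rose and Ddit3 fell with TMT. Nfil3, a transcription repressor of the clock output list, rose with TMT from 87.0, 202, 126 and 128 CPM to 237, 652, 363 and 269 CPM, and was at 76.1, 78.4 and 93.3 CPM without and 72.3, 151 and 95.3 CPM with acetophenone. Its difference was -1.13 (SE 0.30, adjusted p = 0.199).

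In the remaining lists the calls for TMT are again given beside the 4.64% of all genes that rose and the 0.783% that fell. Mki67 and Top2a rose with TMT among 14 genes of basal and dividing cells, and Coch and Hepacam2 among 8 of microvillar cells and ionocytes. So did Obp2b and Ltf among 17 of glands, and Cnga2, Pde1c and Slc12a2 among 18 of olfactory transduction. In that order the median TMT response of the lists was -0.16, 0.27, 0.28 and 0.29, beside 0.02 over all genes. Their median differences were -0.006, -0.61, -0.38 and -0.20, beside -0.05. The differences were -3.39 for Mki67, -1.13 for Coch, -1.32 for Ltf and -2.94 for Slc12a2 (adjusted p = 0.197, 0.290, 0.170 and 0.134), and with 1 litter left out the p of Slc12a2 was 0.0187 (without TMT litter 1) to 0.581. Mki67 was carried by TMT litters 1 and 4, at 58.4 and 63.6 CPM against 2.54 and 7.73 CPM in litters 2 and 3. With TMT, 0 of 61 ribosomal protein genes, 0 of 16 genes of insulin and mTOR signalling to S6, 0 of 16 immune, 0 of 9 red cell, 0 of 7 muscle, 0 of 10 ensheathing glia and 0 of 5 endothelial genes were called. Of 13 mature neuron markers, Cnga2 and Pde1c rose, of 5 vomeronasal markers Gng8 fell, and of 2 trace amine receptors tested 0 were called. The difference of responses held no call in any of these lists. The members named in these counts were singled out because they passed the test.

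Both responses varied with the GC content of the transcript, and to different extents. In the first of 10 equal groups of genes ordered by GC content (median 39.8%) the median log2 response was 0.27 to acetophenone and 1.09 to TMT. Across 12916 genes with an annotated transcript, Spearman's rho with GC content was -0.16 for the acetophenone response, -0.49 for the TMT response and 0.38 for their difference, which describes these libraries since genes are not independent. Genes that rose with TMT had a median GC content of 43.9% and those that fell 56.1%, and the receptors tested had 39.3%. With GC content and length corrected in every library, and with the replicate block, rho for the difference was 0.086 and the smallest adjusted p was 0.0788. No difference was then called, and the 9 genes kept log2 differences of -5.80 to -1.67. After that correction 10 receptors in place of 36 rose with TMT, and the median difference of the 362 receptors was -1.37.

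**Figure D5:**
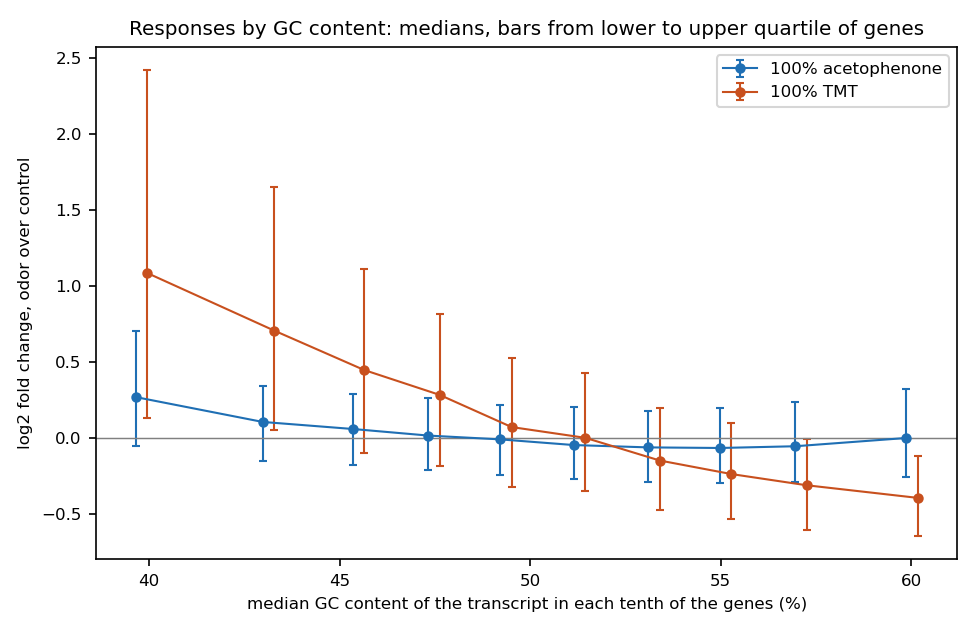
Median log2 response to each odor, with bars from the lower to the upper quartile of genes, in 10 equal groups of the tested genes ordered by GC content of the transcript (median GC content in %, x axis). The TMT medians go from 1.09 in the group of lowest GC content to -0.39 in the group of highest, and the acetophenone medians start at 0.27 and stay near 0.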

How the data were processed

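The 14 pS6 pull-down RNA-seq libraries were compared from the deposited per-library tables. Bowtie, bedtools and mm10 are named in the submitters' processing notes. No source used here gives versions or the annotation. Each table lists 23481 gene symbols and 20 value columns with no header. The first deposited value column holds whole-number counts, read from the values as uniquely aligned reads. The last deposited column holds estimated counts made by the authors, which take in reads with several alignments, as read from the values. These were rounded and used as an alternative. The 18 columns between were not used.

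edgeR 4.0.16 (R 4.3.3) fitted all 14 libraries with litter as a block (TMM, filterByExpr with a minimum count of 10, quasi-likelihood F test, 2-sided, Benjamini-Hochberg over 13033 genes, threshold 0.05, 5 residual degrees of freedom). SE is the log2 value over the square root of F, and 95% intervals use 5 degrees of freedom. The F test adds prior degrees of freedom estimated over all genes, so these intervals are wider than the test beside them implies. The fit was also run on counts simulated from its own model, with changes planted only in genes of high counts. The outcome is not given here, and it does not bear on receptors with few counts. The labels give each library a litter. As a check of the pairing, deviations from the group mean were correlated across genes between the control and the odor library of a litter. The correlation was 0.52 to 0.76 in the acetophenone litters, and negative with odor libraries of other litters. Taking deviations from the group mean favours such negative values, so they are no further support for the pairing. In TMT litters 1 to 4 it was 0.30, 0.11, 0.054 and 0.043. The highest correlation of these controls with an odor library of another TMT litter was 0.028, 0.046, 0.012 and 0.036. The pairing was thus barely visible in TMT litters 2 to 4. GC content came from GENCODE M21 (23096 of 23481 symbols matched). Alternatives were other normalization (RLE), filters, DESeq2 1.42.0, scaling to summed receptor counts, all 23 libraries, estimated counts, GC correction, no block and each litter left out. Genes named were those called, the 10 receptors and 8 other genes with the smallest p in each direction, receptors called for an odor, the first and the most abundant member of each list, and fixed names. The members and lists were chosen with earlier results of these data known. Nothing in the labels says that the litters' libraries came from separate animals of known number, so p-values measure the spread between these litters. A count of 0 allows up to 3 counts.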

Additional observations from a re-analysis of the deposited data

Results flagged for a closer look

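The 9 genes whose responses to the odors differed in the test of the difference itself were Olfr96 (log2 difference -6.36), Psme4 (-2.58), Crot (-2.96), Grsf1 (-2.13), Kcnj15 (-2.92), Hspa4l (-2.79), Aldh1a1 (-2.92), Hspa9 (-2.14) and Phf14 (-2.22), all from edgeR's quasi-likelihood test with litter as a block.

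Among the groups of 4 TMT libraries or litters, single values stood far from the other 3 by Dixon's test at the 95% level, which chance would pass in about 1 of 20 groups. The test was run on many more genes and library measures than are listed here, so some of these values may be due to chance. The receptor share of the TMT control of litter 1 was 0.121% of counts, above the other 3 controls. The log2 TMT ratio was far above the others for Asns in litter 2 (2.60) and Pcdh10 in litter 3 (2.09), and far below them for Nr4a1 in litter 4 (0.63), Tubb5 in litter 2 (-1.18) and Hsp90ab1 in litter 1 (-0.33).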

How the results depend on the processing

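The 9 differences were 0 with no replicate block, with RLE size factors (smallest adjusted p 0.0542), with all 23 libraries (0.0520), with libraries scaled to summed receptor counts (0.0713), with the replicate block and GC and length correction, and with litter 1 of both experiments left out, a setting chosen after seeing the data. The count was 143 without a filter on low counts and 320 with DESeq2, and 0 to 77 with 1 litter left out. All 9 genes stayed negative in every setting. Acetophenone calls, 0 in the fit above, were 4 without a filter (Olfr19, Olfr30, Olfr745 and Pcdh10), 12 with DESeq2, 2 with all 23 libraries (Olfr30 and Pcdh10) and 0 to 2 with 1 litter left out. TMT calls were 707 in all, 24 with no replicate block, 1670 with DESeq2, 1184 with all 23 libraries, 242 with the replicate block and GC and length correction, 321 without litter 1 of both experiments and 86 to 672 with 1 litter left out. The receptor share difference was 0.156 in percentage points, -0.48 with no replicate block, and -0.77 to -0.12 with 1 litter left out. The sign of the difference turned for Olfr745 (-2.40 to 0.52 with 1 litter left out) and for Nr4a1 (-1.39 to 0.042, and 0.11 without litter 1 of both). The causes were not tested. Depth limits the receptors in the TMT controls, where 3 counts stand for 0.394 to 0.737 CPM relative to unscaled library totals.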
